A study of Mus musculus with 6 samples.

Results

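The 10 genes described here are Egfr, Erbb2, Erbb3, Fgfr1, Fgfr2, Fgfr3, Pdgfra, Pdgfrb, Met and Ntrk2, which encode receptor tyrosine kinases for growth factors. They were chosen by symbol, and all 10 were found among the 42365 genes of the count table. RNA was sequenced from mouse neural progenitor cells (NPC), precursors of neurons and glia grown in culture, to set knockout cells beside wild-type cells. The 6 libraries fell into 3 groups of 2: knockout clone 1, knockout clone 2 and the wild-type parental cells. Each knockout clone is 1 line, so what is particular to a clone and what comes with the genotype cannot be told apart within it. The sources used here do not give strain, age, sex, culture medium or how the knockout was made. The titles number the parental libraries as clones 1 and 2. The sources used here do not say whether these, or both libraries of 1 knockout clone, were grown separately, so the p-values may measure technical spread.

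A receptor tyrosine kinase spans the cell membrane. When its ligand binds outside the cell, receptors pair and phosphorylate each other on tyrosines, and adaptor proteins that dock there start the RAS-ERK and PI3K pathways. In neural progenitors and glia, EGF and FGF receptors are known for driving proliferation, PDGF receptor alpha for marking oligodendrocyte precursors, and TrkB, the product of Ntrk2, for binding brain-derived neurotrophic factor.

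All 10 are protein-coding genes. In RefSeq (GRCm38.p6), Met lies at chr6:17463349-17573980, Ntrk2 at chr13:58806472-59133970, Egfr at chr11:16752203-16913907, Erbb2 at chr11:98412484-98437716 and Erbb3 at chr10:128567523-128589635. Fgfr1 lies at chr8:25518759-25575718, Fgfr2 at chr7:130162451-130266808, Fgfr3 at chr5:33721724-33737068 and Pdgfra at chr5:75151322-75198206, while Pdgfrb is on chromosome 18. Counts are per gene and do not separate transcripts. The GENCODE model of Fgfr2 runs beyond its RefSeq end, to base 133123350, which lengthens its joined exons.

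Library totals ran between 58871554 and 69530032 counts. A count was found for 32130 to 32686 genes in clone 1, 30747 to 31262 in clone 2 and 37419 to 37678 in parental libraries. Levels are in CPM, counts scaled by library size after TMM normalisation, and ± gives the SD over both libraries of a group (n = 2). Markers of neural progenitors, 8 genes that include Nes, Sox2 and Pax6, were each at 1 CPM or more in all 6 libraries. Their summed level was 2582 to 2598 CPM in clone 1, 3155 to 3162 in clone 2 and 2934 to 2945 in parental libraries. Single genes of this list differed more, and in both directions. Fabp7 was at 572 to 631 CPM in both clones and 161 to 168 in parental libraries, and Msi1 at 103 to 108 and 261 to 263. The 5 endothelial, 6 microglial and 4 pluripotency markers were each under 1 CPM in every library.

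The genotype rests on the labels and was not checked here, which is why both clones are described as labelled knockout.

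Met, the receptor for hepatocyte growth factor, was near 0 in the labelled knockout clones and well expressed in parental cells. The libraries held 12 and 11 counts of Met in clone 1, 53 and 35 in clone 2, and 8811 and 8016 in parental cells. On the CPM scale these were 0.183 and 0.160 in clone 1, 0.800 and 0.568 in clone 2, and 137 and 136 in parental cells. All 4 labelled knockout libraries lay far below both parental ones, and both clone 2 libraries lay above both of clone 1. With the clones as replicates of the genotype, the log2 fold change of Met was -8.28 (SE 0.65, adjusted p = 0.00192, edgeR's quasi-likelihood test). Leaving out a parental library left the size near that, at -8.26 or -8.29, but the adjusted p was then 0.151 or 0.157.

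Ntrk2, which of the 10 genes had the highest CPM in each of the 6 libraries, was lower in the labelled knockout clones. Its levels were 1091 and 1038 CPM in clone 1, 1573 and 1579 in clone 2, and 2791 and 2828 in parental cells. The groups did not overlap, and clone 2 stood between clone 1 and parental cells. The log2 fold change was -1.06 (SE 0.20, adjusted p = 0.0174). The gene makes a form with the kinase and shorter forms without it, and counts per gene do not separate them. Without parental library 1 or 2 the adjusted p was 0.0601 or 0.0613.

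Egfr, which binds EGF, TGF-alpha and related ligands, was the only 1 of the 10 genes called higher with the clones as replicates. It was at 927 and 872 CPM in clone 1, 709 and 696 in clone 2, and 519 and 523 in parental cells. Every labelled knockout library lay above both parental ones, with clone 1 highest. The log2 fold change was 0.65 (SE 0.13, adjusted p = 0.0215), and 0.171 or 0.168 was the adjusted p without parental library 1 or 2.

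**Figure D1:**
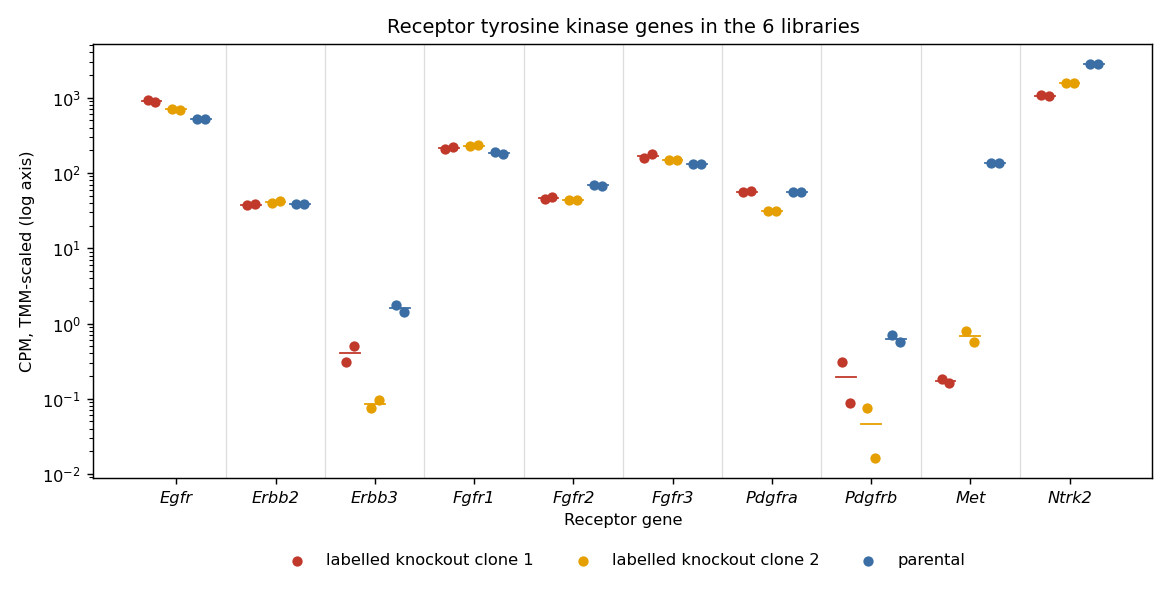
Level of each receptor gene in CPM (log axis) in the 6 libraries, 1 point per library and a line at the mean of each group, with labelled knockout clone 1, clone 2 and parental cells side by side. Met stands near 137 CPM in parental cells and under 1 CPM in all 4 labelled knockout libraries. For Erbb2, clone 1 and parental cells overlap, and clone 2 lies slightly above both.

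The promoters of Met and Egfr are shown because these genes had the largest fall and the largest rise called among the 10. Each is the 250 bases upstream of a RefSeq transcript start (GRCm38.p6, plus strand), chr6:17463707-17463956 for Met and chr11:16751953-16752202 for Egfr. Capitals mark GC boxes (GGGCGG, which reads CCGCCC where it lies on the minus strand) and AP-1 motifs (TGANTCA).
Met: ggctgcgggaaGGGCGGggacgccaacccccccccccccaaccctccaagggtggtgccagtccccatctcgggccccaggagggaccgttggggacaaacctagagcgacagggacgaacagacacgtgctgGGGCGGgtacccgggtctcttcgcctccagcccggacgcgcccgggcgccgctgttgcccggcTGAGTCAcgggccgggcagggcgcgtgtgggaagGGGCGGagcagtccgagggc
Egfr: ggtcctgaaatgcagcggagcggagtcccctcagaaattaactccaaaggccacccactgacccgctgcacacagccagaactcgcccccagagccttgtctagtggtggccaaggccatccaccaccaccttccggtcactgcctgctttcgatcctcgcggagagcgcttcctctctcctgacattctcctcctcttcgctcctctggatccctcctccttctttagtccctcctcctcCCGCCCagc
Met held 3 GC boxes and 1 AP-1 motif, and Egfr held 1 GC box. Of the 10 genes, 7 matched the promoter table, with 8 promoters. A GC box lay in 4 of the 8 and in 32.7% of all 32851 promoters, an AP-1 motif in 1 of the 8 and in 6.75% of all, and TATAAA in 0 of the 8 and in 12.4% of all. The marked matches do not overlap, both strands were read, and a match describes letters only.

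Among the other ErbB receptors, Erbb2, a partner kinase with no known ligand of its own, differed little between the groups. Its levels were 37.0 and 38.9 CPM in clone 1, 40.2 and 42.6 in clone 2, and 38.9 and 39.1 in parental cells. The labelled knockout and parental libraries overlapped. The log2 fold change was 0.06 (95% interval -0.19 to 0.31, adjusted p = 0.709), which does not show that the groups are equal. Erbb3, a neuregulin receptor with a weak kinase, was low throughout: 20 and 35 counts in clone 1, 5 and 6 in clone 2, and 112 and 84 in parental cells. That is 0.305 and 0.510 CPM in clone 1, 0.0755 and 0.0973 in clone 2, and 1.74 and 1.42 in parental cells. Its log2 fold change was -2.64 (SE 0.65, adjusted p = 0.0385). The adjusted p was 0.0695 without the first clone 1 library, 0.0510 with no filter on low counts, and 0.259 or 0.222 without parental library 1 or 2. In the fit of 6 libraries, both libraries reached the filter's 0.155 CPM in clone 1 and in parental cells, but not in clone 2. With the libraries of each clone added, clone 2 again fell short of the filter. Erbb3 was then kept only through the parental libraries, where it is high. Its call with the clones as replicates is therefore a description.

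Fgfr2, which binds several FGFs, fell, whereas Fgfr1 and Fgfr3 did not pass the test with the clones as replicates. Fgfr2 was at 45.1 and 48.3 CPM in clone 1, 44.3 and 43.2 in clone 2, and 70.1 and 67.4 in parental cells. The 4 labelled knockout libraries lay close together and below both parental ones. The log2 fold change was -0.57 (SE 0.090, adjusted p = 0.00957), with adjusted p of 0.191 or 0.139 without parental library 1 or 2. Fgfr1, an FGF receptor of neural stem cells, was at 206 and 220 CPM in clone 1, 226 and 233 in clone 2, and 188 and 179 in parental cells. Each labelled knockout library lay above both parental ones, with a log2 fold change of 0.30 (SE 0.092, adjusted p = 0.0659). Fgfr3, a receptor also known from astrocytes, was at 156 and 177 CPM in clone 1, 149 and 147 in clone 2, and 133 and 132 in parental cells. Its log2 fold change was 0.28 (SE 0.093, adjusted p = 0.0826), and its groups did not overlap either.

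Of the PDGF receptor genes, Pdgfra was lower in clone 2 than in clone 1, and Pdgfrb was near the limit of detection. Pdgfra, a marker of oligodendrocyte precursors, was at 55.5 and 57.8 CPM in clone 1, 31.6 and 30.8 in clone 2, and 56.6 and 56.6 in parental cells. Clone 1 overlapped parental cells and clone 2 lay below both. With the clones as replicates the log2 fold change was -0.34 (95% interval -1.04 to 0.37, adjusted p = 0.423). Pdgfrb, known from pericytes and other mural cells, had 20 and 6 counts in clone 1, 5 and 1 in clone 2, and 45 and 33 in parental cells. In the fit of 6 libraries, Pdgfrb passed the filter only through the parental libraries, where it is high. With the libraries of each clone added, clone 1 reached the filter but clone 2 did not. The filter thus decided in part whether Pdgfrb could be called. Its log2 fold change of -2.34 (SE 0.62) is therefore a description, and its call was lost in 4 of 15 alternatives, those without the second clone 1 library, the first clone 2 library or either parental library.

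Over the 10 genes, 1 was called higher and 5 lower with the clones as replicates, with Erbb3 and Pdgfrb among the 5. Of all 24506 genes tested, 26.7% were called, 13.0% higher and 13.6% lower. Since the filter decided in part whether Erbb3 and Pdgfrb could be called, the count is a description. The median log2 fold change was -0.45 for the 10 genes and 0.03 for all genes tested. Libraries did not overlap between labelled knockout and parental for 8 of the 10 genes, against 56.7% of all genes tested. Without parental library 1 or 2, 0 of the 10 were called by edgeR. Unadjusted p was then under 0.05 for 5 genes without parental library 1 and for 6 without parental library 2, and DESeq2 on all libraries called 6.

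**Figure D2:**
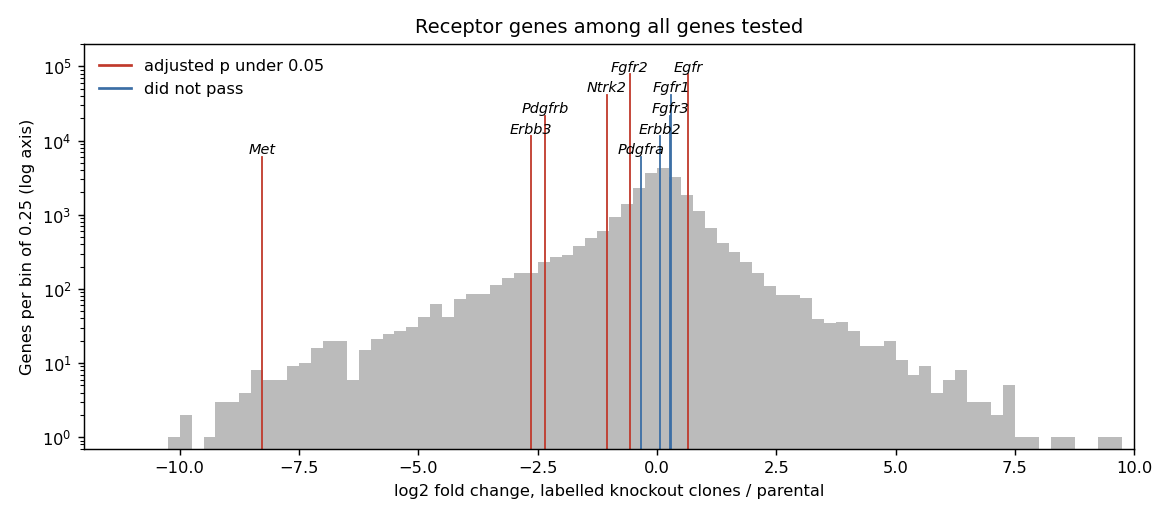
Number of genes (log axis) by log2 fold change of labelled knockout over parental cells for all 24506 genes tested, with a line for each receptor gene, red where its adjusted p was under 0.05. Met lies at -8.28 and the other 9 genes between -2.64 and 0.65.

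The clones were also set against parental cells one at a time, each sharing the 2 parental libraries, so their agreement is not a separate check. In clone 1, 3 of the 10 genes were called higher and 5 lower, where 54.5% of all genes tested were called (27.3% higher and 27.2% lower). The libraries of 8 of the 10 did not overlap, against 75.6% of all genes. In clone 2, 3 were higher and 6 lower, where 53.5% of all genes were called (26.7% higher and 26.8% lower). There the libraries of all 10 did not overlap, against 77.6% of all genes. Pdgfrb, kept by the filter only through the parental libraries, is among the genes called lower in both clones. The counts called in each clone are therefore a description. Egfr was higher in both, by 0.79 in clone 1 (SE 0.042, adjusted p = 8.2e-11) and 0.43 in clone 2 (SE 0.042, adjusted p = 1.9e-07) on the log2 scale. Fgfr1 was higher by 0.21 in clone 1 (SE 0.046) and 0.32 in clone 2 (SE 0.046), with 0.000851 and 1.6e-05 as the adjusted p. Without parental library 2, Fgfr1 in clone 1 no longer passed, at 0.16 (adjusted p = 0.0560). Fgfr3 was higher by 0.33 in clone 1 (adjusted p = 4.6e-05) and 0.16 in clone 2 (adjusted p = 0.0167). In clone 2, Fgfr3 missed the threshold without parental library 1 or 2 (adjusted p = 0.0790 or 0.0957) and in DESeq2 (0.0666).

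The falls against parental cells were those of Met, Ntrk2, Fgfr2, Erbb3 and Pdgfrb in clone 1, and of these and Pdgfra in clone 2. Met was at -9.62 in clone 1 (SE 0.11) and -7.63 in clone 2 (SE 0.093). Ntrk2 was at -1.40 in clone 1 (SE 0.041) and -0.83 in clone 2 (SE 0.041). Fgfr2 was at -0.56 in clone 1 (SE 0.052) and -0.65 in clone 2 (SE 0.052). These are log2 fold changes, and all 6 had an adjusted p of at most 1.03e-07. Pdgfra was at 0.00 in clone 1 (SE 0.050, adjusted p = 0.985) and -0.86 in clone 2 (SE 0.052, adjusted p = 3.5e-10). Erbb3 was at -1.95 in clone 1 (SE 0.29) and -4.17 in clone 2 (SE 0.38), and, as a description, Pdgfrb at -1.69 in clone 1 (SE 0.51) and -3.70 in clone 2 (SE 0.65). The call of Pdgfrb in clone 1 was lost without parental library 1 and without the second clone 1 library.

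**Figure D3:**
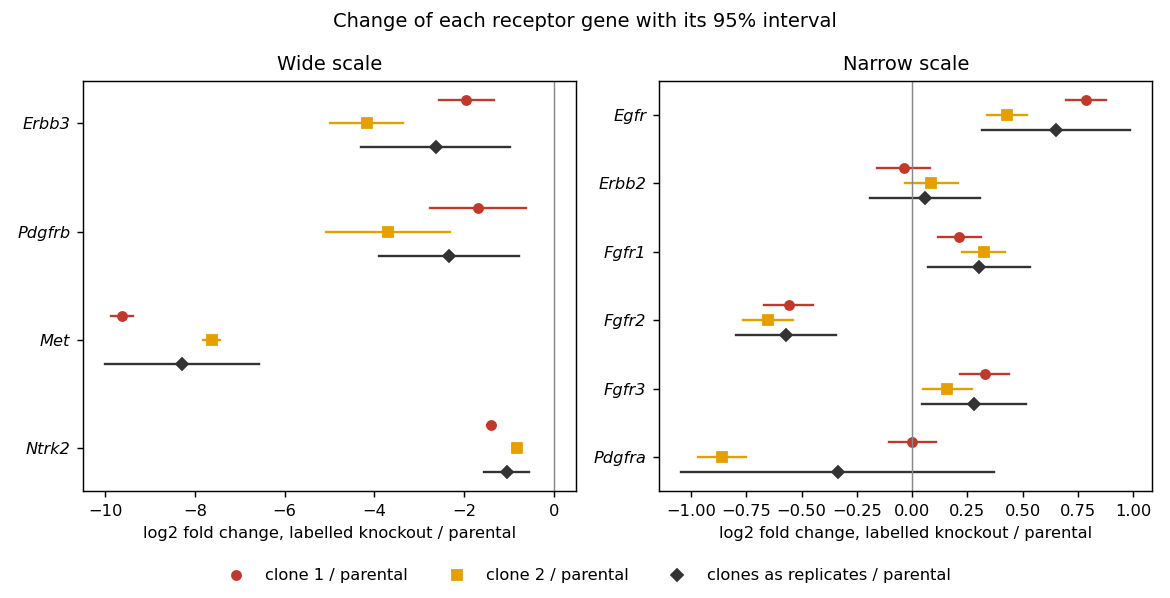
Log2 fold change of labelled knockout over parental cells for each receptor gene with its 95% interval, for clone 1, clone 2 and the clones as replicates. The left panel has a wide scale and holds Met at -9.62 in clone 1 and -7.63 in clone 2, and the right panel has a narrow scale and shows Pdgfra at 0.00 in clone 1 and -0.86 in clone 2.

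Between the clones, 2 of the 10 genes were called higher in clone 2 than in clone 1 and 5 lower, where 36.4% of all genes were called (16.1% higher and 20.3% lower). The libraries of all 10 genes did not overlap between the clones, against 66.3% of all genes tested. Met was higher by 1.99 (SE 0.25, adjusted p = 8.9e-06), with both clones near 0. Ntrk2 was higher by 0.57 (SE 0.041) and Pdgfra lower, at -0.86 (SE 0.051). Egfr was lower at -0.36 (SE 0.042), Erbb3 at -2.22 (SE 0.46, adjusted p = 0.00108), Fgfr3 at -0.17 (SE 0.052, adjusted p = 0.0173) and Pdgfrb at -2.01 (SE 0.76, adjusted p = 0.0495), all on the log2 scale. Pdgfrb and Fgfr3 lost the call in 6 alternatives each: the adjusted p ran up to 0.538 for Pdgfrb and 0.177 for Fgfr3.

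To compare genes with each other, levels were divided by the length of all exons of a gene joined. The summed level of the 10 genes was 196 to 198 CPM per kb in clone 1, 203.0 to 203.1 in clone 2 and 266 to 267 in parental cells. Ntrk2 made up 28.0% ± 0.74 of that sum in clone 1, 40.2% ± 0.13 in clone 2 and 54.6% ± 0.40 in parental cells. Egfr made up 40.3% ± 1.4 in clone 1, 30.5% ± 0.39 in clone 2 and 17.3% ± 0.044 in parental cells. The length used moved these shares by more than the replicate spread. With the longest coding transcript, Ntrk2 was at 38.3% in clone 1, 51.1% in clone 2 and 65.3% in parental cells, and Egfr at 27.7%, 19.5% and 10.4% in the same order of groups. Egfr stood above Ntrk2 in clone 1 only with the joined exons. Met made up 0.0113% in clone 1, 0.0438% in clone 2 and 6.67% in parental cells with the joined exons. In parental cells the order per kb was Ntrk2, Egfr, Fgfr1, Fgfr3, Met, Erbb2, Fgfr2, Pdgfra, Erbb3 and Pdgfrb, where Fgfr1 at 18.6 ± 0.63 and Fgfr3 at 18.5 ± 0.049 CPM per kb differed by less than their spread. With the longest coding transcript Fgfr2 came before Pdgfra and Erbb2 there, so the order of these genes depends on the length. In clone 1, Fgfr3 at 23.3 ± 2.0 and Fgfr1 at 21.6 ± 1.0 also lay within their spread, after Egfr at 79.4 ± 3.4 and Ntrk2 at 55.2 ± 1.9. In clone 2, Ntrk2 was at 81.7 ± 0.21, Egfr at 62.0 ± 0.82, Fgfr1 at 23.3 ± 0.49 and Fgfr3 at 20.7 ± 0.16 CPM per kb.

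**Figure D4:**
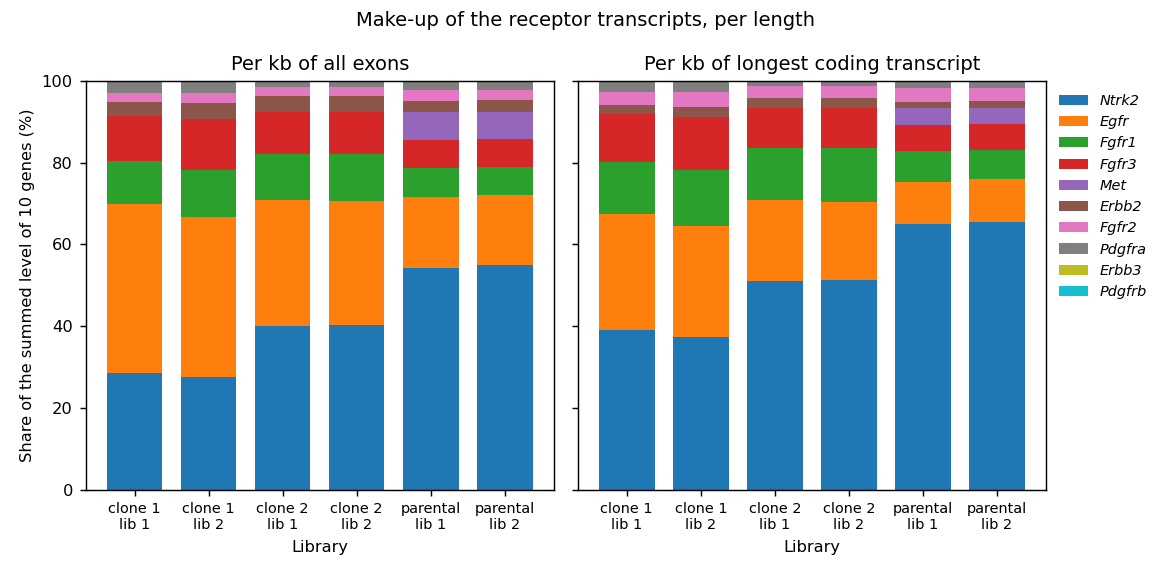
Share of each receptor gene (percent) in the summed per-length level of the 10 genes in each library, with the length of all exons on the left and of the longest coding transcript on the right. The Egfr share is 40.3% in clone 1, 30.5% in clone 2 and 17.3% in parental cells on the left.

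Within the FGF receptor genes, Fgfr2 made up 9.16% of their summed level per kb of all exons in clone 1, 8.79% in clone 2 and 15.2% in parental cells. Fgfr1 made up 43.7% in clone 1, 48.3% in clone 2 and 42.4% in parental cells. Within the 3 ErbB genes, Egfr made up 91.5% in clone 1, 88.6% in clone 2 and 85.6% in parental cells. Pdgfra made up 99.4% of the level of both PDGF receptor genes in clone 1, 99.7% in clone 2 and 98.0% in parental cells. With the longest coding transcript, Fgfr2 was at 11.7% of the FGF receptor genes in clone 1, 11.2% in clone 2 and 19.1% in parental cells. Fgfr1 was then at 45.8%, 50.3% and 43.5% in the same order of groups.

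Among the ligand genes that averaged 5 CPM or more, Fgf1, whose product binds all FGF receptors, had the largest change. It was at 133 and 131 CPM in clone 1, 108 and 110 in clone 2, and 7.88 and 9.34 in parental cells. Its log2 fold change was 3.84 (SE 0.15, adjusted p = 0.000243). Of the FGF ligands tested (10 of the 17 found), 2 were called higher and 1 lower: Fgf1 and Fgf23, an endocrine FGF, rose and Fgf18 fell. Over all genes tested the share called was 26.7%. Fgf23, with 6 and 6 counts in parental cells, was kept by the filter only through the clones, where it is high. Its call, and with it the count of FGF ligands called, is therefore a description. Fgf23 was at 1.03 CPM in clone 1, 0.584 in clone 2 and 0.0976 in parental cells, and Fgf18 at 0.187, 0.147 and 1.65 CPM in the same groups. Fgf7 was not analysed here.

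Of 8 ErbB ligands tested, 0 were called higher and 2 lower, Nrg2 (-1.45, SE 0.21) and Nrg1 (-2.34, SE 0.35), which encode neuregulins that bind ErbB3 and ErbB4. Over all genes tested, 26.7% were called. Nrg1 held 9 and 5 counts in clone 1, 10 and 3 in clone 2, and 31 and 35 in parental cells. The filter kept Nrg1 only through the parental libraries, where it is high. Its call, and with it the count of ErbB ligands called, is therefore a description. Tgfa, an EGF receptor ligand, was at 33.5 and 31.4 CPM in clone 1, 24.1 and 23.2 in clone 2, and 40.5 and 41.7 in parental cells, with a log2 fold change of -0.52 (SE 0.16, adjusted p = 0.0701). Hbegf, another, was at 0.02 (SE 0.12, adjusted p = 0.941). Of the 4 PDGF ligands 1 was called, Pdgfc, lower at -0.60 (SE 0.11, adjusted p = 0.0134), while Pdgfa was at -0.10 (SE 0.12, adjusted p = 0.589). Bdnf, the TrkB ligand, was at 7.87 and 8.40 CPM in clone 1, 8.96 and 9.05 in clone 2, and 6.09 and 6.27 in parental cells. Every labelled knockout library lay above both parental ones, with a log2 fold change of 0.50 (SE 0.15, adjusted p = 0.0584). Hgf, the Met ligand, had 4 and 2 counts in clone 1, 0 and 0 in clone 2, and 6 and 5 in parental cells, below the filter.

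**Figure D5:**
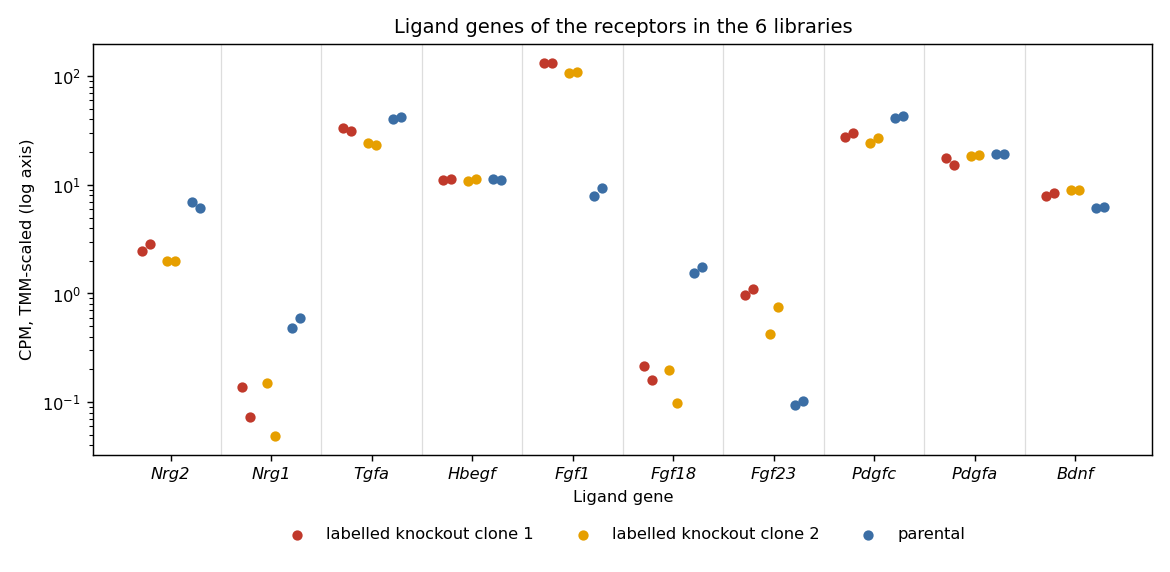
Level in CPM (log axis) of each named ligand gene in the 6 libraries, 1 point per library, with clone 1, clone 2 and parental cells side by side. Fgf1 lies at 108 to 133 CPM in the labelled knockout libraries and at 7.88 to 9.34 CPM in parental libraries.

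Among 9 tested genes that release or activate ligands, 3 were higher and 1 lower, where 26.7% of all genes tested were called. Adam17, the protease that sheds EGF receptor ligands, rose by 0.65 (SE 0.10) on the log2 scale, and Adam10 by 0.54 (SE 0.12). Rhbdf1, which helps ADAM17 reach the cell surface, rose by 0.93 (SE 0.13). The pro-protein convertase gene Furin was at -0.54 (SE 0.090). Their adjusted p ran between 0.00607 and 0.0273.

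Of 18 genes that restrain receptors, 5 were higher and 1 lower, with 12 not passing. Spry4 and Spry1, inhibitors of the RAS-ERK pathway, rose by 4.52 (SE 0.23, adjusted p = 0.000373) and 4.02 (SE 0.13, adjusted p = 0.000172). Spry4 was at 570 and 587 CPM in clone 1, 377 and 385 in clone 2, and 21.5 and 21.1 in parental cells. Ptprj, a receptor phosphatase, rose by 2.11 (SE 0.091), and Socs2, an inhibitor of cytokine signalling, fell by 3.28 (SE 0.12). Of 28 adaptors and enzymes recruited to receptors, 4 were higher and 3 lower, so 21 did not pass, where 26.7% of all genes tested were called. Shc3, an adaptor of Trk receptors, rose by 2.03 (SE 0.11), Gab3 by 2.51 (SE 0.30) and Plcg1 by 0.61 (SE 0.087), while Gab1, a docking protein, was at -1.03 (SE 0.15). The median log2 fold change was 0.15 over the genes that restrain receptors, 0.02 over the adaptors and 0.03 over all genes tested. Over the tested ligand genes it was 0.22 for FGF ligands, -0.25 for ErbB ligands and -0.75 for PDGF ligands.

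Of 11 co-receptor genes tested, 4 were higher and 4 lower, with a median log2 fold change of 0.37. Sdc4, a heparan sulphate proteoglycan that can bind FGFs, fell by 3.11 (SE 0.10). It was at 25.1 and 25.9 CPM in clone 1, 23.0 and 22.1 in clone 2, and 216 and 209 in parental cells. Cd44 fell by 0.82 (SE 0.10), and Fgfrl1, an FGF receptor without a kinase, rose by 1.23 (SE 0.11) and Nrp1 by 0.93 (SE 0.11). Of 45 other receptor tyrosine kinase genes tested, 8 were higher and 11 lower, with a median of -0.51, where 13.0% of all genes were called higher and 13.6% lower. Epha5, an ephrin receptor gene, rose by 2.05 (SE 0.11), and Kit, Ephb3 and Ephb1 were at -1.68, -1.15 and -3.77.

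Some marker lists of other cell types moved between the groups as well. The 8 astrocyte markers summed to 2694 to 2712 CPM in clone 1, 3654 to 3685 in clone 2 and 7232 to 7259 in parental cells. Gfap, an astrocyte filament gene, was at 1.52 to 1.65 CPM in clone 1, 9.49 to 9.91 in clone 2 and 2661 to 2717 in parental cells. Of the 8, 1 was called higher and 4 lower with the clones as replicates, where 26.7% of all genes tested were called. In clone 2, 3 were higher and 5 lower than in parental cells, where 53.5% of all genes tested were called. Slc1a2, a glutamate transporter gene, was at 1147 and 1078 CPM in clone 1, 1588 and 1545 in clone 2, and 1058 and 1049 in parental cells. The 6 oligodendrocyte precursor markers summed to 5238 to 5341 CPM in clone 1, 6197 to 6469 in clone 2 and 1381 to 1388 in parental cells. Olig1 and Olig2 led that sum in every group. Of the 6, 4 were called higher and 1 lower with the clones as replicates, where 26.7% of all genes tested were called. Against parental cells, 4 were higher and 2 lower in clone 1, and 5 higher and 1 lower in clone 2. Gpr17 of that list was lower in both clones. Sox10 was low throughout, with 39 and 47 counts in clone 1, 160 and 163 in clone 2, and 100 and 71 in parental cells. For Ntrk2, Fgfr3 and Pdgfra, which these cell types also express, the part of such cells in the results was not tested. In bulk RNA, fewer cells of a type and less RNA per cell cannot be told apart. The 8 mural markers summed to 185 to 195 CPM in clone 1, 245 to 246 in clone 2 and 140 to 144 in parental cells, nearly all of it Notch3, at 184 to 194, 244 and 133 to 138 CPM in these groups. Of the 8, 1 was at 1 CPM or more in each labelled knockout library and 3 in each parental one, and Rgs5 and Kcnj8 were at 0.0755 CPM or lower in the clones. The 6 neuron markers, led by Map2, summed to 1362 to 1517 CPM in clone 1, 1051 to 1075 in clone 2 and 1096 to 1107 in parental cells. Map2 carried that sum, while of the 6 genes 0 were called higher and 4 lower by edgeR with the clones as replicates, with a median log2 fold change of -2.13. Dcx, a gene of young neurons, was at 10.3 to 10.5 CPM in clone 1, 8.34 to 8.53 in clone 2 and 66.6 to 66.8 in parental cells. The 8 fibroblast markers summed to 37.8 to 41.3 CPM in clone 1, 28.1 to 28.9 in clone 2 and 106 to 110 in parental cells, nearly all of it Prrx1. Of the 7 fibroblast markers tested, 1 was called, lower.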

How the data were processed

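RNA of 6 libraries of mouse neural progenitor cells was sequenced, per the labels' protocols, after library preparation with SMART-Seq v4 or TruSeq kits; the sources used here do not say which library used which, so kit and group cannot be told apart. The authors deposited whole-number counts per Ensembl gene, and the submitters' processing notes name STAR, featureCounts, GRCm38.p6 and mm10. The sources used here give no strand or multi-mapping settings, so reads of overlapping genes may be mixed. Of 42365 rows, 41791 were found in the GENCODE M21 annotation, which gave lengths. Symbols came from the deposited count table, and promoters from RefSeq (GRCm38.p6).

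The analysis used edgeR 4.0.16 with limma 3.58.1 (R 4.3.3): filterByExpr (minimum count 10), TMM scaling, robust quasi-likelihood test, Benjamini-Hochberg adjustment over all genes tested, threshold 0.05. To test the label, libraries were added per knockout clone, giving 4 columns (2 clones, 2 parental libraries). Contrasts of single clones came from 1 fit of 6 libraries in 3 groups. The tests were tested on simulated data. DESeq2 1.42.0, other scalings and filters, a replicate block and leaving out each library were the alternatives. The replicate numbers did not pair the samples. The 10 genes and the lists were chosen with earlier results of these data known. Named from each other list were up to 4 genes with the smallest adjusted p, and each ligand with a mean of at least 5 CPM. Reads are not independent molecules. Protein sequences were not used here. Of the genes these rules and the design name, the gene the labels give as knocked out and 1 ligand gene are not reported here.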

Additional observations from a re-analysis of the deposited data

Results flagged for a closer look

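For 7 of the 10 receptor genes the effect of the label differed between the clones, by the test of clone 2 against clone 1 in edgeR's quasi-likelihood fit of 6 libraries (n = 2 per group), where 36.4% of all genes were called. Met was higher in clone 2 by 1.99 and Ntrk2 by 0.57 on the log2 scale, in 2 of 2 libraries of clone 2 above 2 of 2 of clone 1. The log2 fold change was -0.36 for Egfr, -0.86 for Pdgfra, -2.22 for Erbb3, -2.01 for Pdgfrb and -0.17 for Fgfr3, each with both clone 2 libraries below both of clone 1. Adjusted p was 0.0173 for Fgfr3, 0.0495 for Pdgfrb and 0.00108 for Erbb3, and at most 8.91e-06 for the other 4. Pdgfrb held 5 and 1 counts in clone 2 and 20 and 6 in clone 1. Fgfr3 and Pdgfrb lost this call in 6 alternatives each, with adjusted p up to 0.177 and 0.538. The share over all genes includes many low ones. At a mean of at least 5 CPM, 6 of the 8 receptor genes tested were called between the clones, beside 6619 of all 11019 genes tested.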

How the results depend on the processing

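With the clones as replicates, 6532 genes were called. The count was 3795 at a mean of at least 5 CPM, where fewer genes were tested, and 13213 with libraries as replicates. Leaving out 1 library gave 2529 to 6714 genes and 0 to 6 receptor genes (6 otherwise), the lowest without parental library 1 or 2 (2544 and 2529 genes, 0 receptor genes in both). Leaving out a whole clone gave 13475 or 13495 genes and 9 or 8 receptor genes. The cause was not tested. At a mean of at least 5 CPM, 11019 genes were tested in each single-clone comparison. Of these, 8019 were called in clone 1 against parental (12752 otherwise) and 7847 in clone 2 against parental (12520 otherwise). Of the 8 receptor genes tested there, 6 were called in clone 1 and 7 in clone 2. Leaving out each library gave 10469 to 12863 and 10433 to 14052 genes in these comparisons, and 5765 to 9291 in clone 2 against clone 1 (8511 otherwise). In clone 2 against clone 1, upper quartile scaling called 4 receptor genes higher and 4 lower, where TMM called 2 and 5.

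No called value changed sign under any alternative run. Of the values for single genes, 207 kept their side of the threshold when 1 library was left out, 29 lost and 4 gained the call. With a whole clone left out, 15 kept it and 5 gained it. Under the other alternatives 234 kept it, 6 lost and 12 gained it. Same-numbered libraries did not deviate together (r = -0.0075, -0.015 and 0.019), so the numbers do not pair the samples. With a replicate block the counts were 6843, 12659, 12412 and 8449, in the order labelled knockout, clone 1 and clone 2 against parental, then clone 2 against clone 1, and Met had an adjusted p of 0.116 at a log2 fold change of -8.42 with the clones as replicates. Low counts limit Erbb3 and Pdgfrb.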

Other observations

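For each receptor gene, the gene with the closest log2 CPM profile over the 6 libraries was found among 10512 genes, or 10513 for Erbb3 and Pdgfrb, with a mean of at least 5 CPM. Distances are Euclidean, on profiles centred on their mean. The closest genes were Dpp7 to Egfr (0.0399), Slc37a3 to Erbb2 (0.0470), Rbm15b to Fgfr1 (0.0388), Abca7 to Fgfr2 (0.0349) and Atp6v0b to Fgfr3 (0.0514). Slc2a13 was closest to Pdgfra (0.130) and Dcakd to Ntrk2 (0.117). Of the genes compared, 46.0% lay within 0.5 of Erbb2 and 1.59% within 0.5 of Ntrk2, while 0 lay that close to Met or Pdgfrb. Lhpp, at 1.16 from Met, had 0.0305 and 0.0146 CPM in clone 1, 0.211 and 0.130 in clone 2, and 18.6 and 18.8 in parental cells. Adgrb1, at 0.441 from Erbb3, had 28.1 and 31.3 CPM in clone 1, 7.06 and 8.22 in clone 2, and 116 and 114 in parental cells.

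Exons of some receptor genes overlap those of neighbours. Fgfr2 shares 314 exon bases with Ctbp2 on the same strand in GENCODE, and Fgfr3 shares 998 with G630022F23Rik on the opposite strand, which had 24 and 44 counts in clone 1, 31 and 23 in clone 2, and 50 and 72 in parental cells.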
